A study of Mus musculus with 12 samples.

Results

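The 10 genes of blood vessels and their growth followed here in mouse colorectal tissue were the ligand genes Vegfa and Angpt2, the receptor genes Kdr, Flt1, Tek and Eng, and Pecam1, Cdh5, Plvap and Vwf, which mark endothelial cells. They were chosen by name from the gene names on the array and are 10 of 30139 genes or transcripts measured, read by 15 of 39429 probes. A filter on dim probes kept 20082 genes, those read well above background throughout 1 group or more. All 10 passed it, and the probe used for each of the 10 was well above background on all 12 arrays.

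The study compared normal and adenomatous tissue of the large intestine on single-colour oligonucleotide arrays, 1 array per tissue sample. There were 3 groups of 4 arrays. Wild-type normal tissue came from C57BL/6N mice numbered 102, 104, 105 and 108, and Apc normal tissue and polyps came from C57BL/6N mice numbered 103, 106, 107 and 110 that carry 1 wild-type and 1 Δ716 copy of Apc, a tumour suppressor gene that limits Wnt signalling. All mice were female and 14 weeks old, no treatment is labelled, and each Apc mutant mouse gave 1 normal and 1 polyp sample. Samples were pieces of whole tissue, in which fewer cells of a type and less RNA per cell cannot be told apart.

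Endothelial cells line blood vessels and hold together through junction proteins such as VE-cadherin, encoded by Cdh5, and PECAM-1. New vessels sprout when VEGF-A activates the receptor VEGFR2, encoded by Kdr, while VEGFR1, encoded by Flt1, binds the same ligand and in its soluble form keeps it from VEGFR2. Angiopoietin-1 stabilises vessels through the receptor TIE2, encoded by Tek, and angiopoietin-2, released by activated endothelial cells, can oppose it and loosen the vessel wall.

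Sequences of 3 probes are given because they read a receptor that was called lower in polyps (Tek), a marker whose groups overlapped (Pecam1) and a marker whose dimmer probe, printed here, was not called while its brighter probe was (Plvap). Each is a 60-base probe, written 5′ to 3′ with no letter singled out, at its mm9 position in the scanner files; exon and UTR annotation of that build was not used here. The Pecam1 probe lies at chr11:106540864-106540923 on the minus strand, the Tek probe at chr4:94540624-94540683 on the plus strand and the dimmer Plvap probe at chr8:74030739-74030798 on the minus strand, with a GC content of 45.0% for Tek and 55.0% for Plvap.
Pecam1: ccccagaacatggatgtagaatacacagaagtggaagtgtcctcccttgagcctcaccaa
Tek: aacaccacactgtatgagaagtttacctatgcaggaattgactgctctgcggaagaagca
Plvap: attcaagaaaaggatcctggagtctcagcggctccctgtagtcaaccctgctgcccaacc

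Promoters of 4 receptor genes follow, since these receptors are compared below, and of them only Tek was called in polyps against Apc normal tissue on the probe used. They are the 250 bases before the start of the gene in RefSeq's table of build GRCm38.p6, 5′ to 3′ in the direction of transcription, with GGAA or its reverse complement TTCC in capitals, the core of the sites that ETS transcription factors of endothelial cells bind. Eng lies at chr2:32646345-32646594 (plus strand), Tek at chr4:94739039-94739288 (plus), Kdr at chr5:75978456-75978705 (minus) and Flt1 at chr5:147726012-147726261 (minus).
Eng: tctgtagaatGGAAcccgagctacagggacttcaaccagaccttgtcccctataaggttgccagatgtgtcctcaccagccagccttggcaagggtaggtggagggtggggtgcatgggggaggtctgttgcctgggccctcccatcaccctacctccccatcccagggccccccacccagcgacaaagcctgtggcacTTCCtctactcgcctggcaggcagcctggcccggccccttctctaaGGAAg
Tek: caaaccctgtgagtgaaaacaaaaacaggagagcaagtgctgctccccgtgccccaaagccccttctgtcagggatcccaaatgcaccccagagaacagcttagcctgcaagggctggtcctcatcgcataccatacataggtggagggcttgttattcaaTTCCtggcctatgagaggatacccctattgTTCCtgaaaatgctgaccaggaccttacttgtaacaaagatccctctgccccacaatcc
Kdr: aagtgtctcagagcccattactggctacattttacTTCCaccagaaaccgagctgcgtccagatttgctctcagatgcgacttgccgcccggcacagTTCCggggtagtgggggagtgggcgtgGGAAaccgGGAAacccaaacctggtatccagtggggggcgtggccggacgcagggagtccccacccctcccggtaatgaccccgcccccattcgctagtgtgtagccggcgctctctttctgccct
Flt1: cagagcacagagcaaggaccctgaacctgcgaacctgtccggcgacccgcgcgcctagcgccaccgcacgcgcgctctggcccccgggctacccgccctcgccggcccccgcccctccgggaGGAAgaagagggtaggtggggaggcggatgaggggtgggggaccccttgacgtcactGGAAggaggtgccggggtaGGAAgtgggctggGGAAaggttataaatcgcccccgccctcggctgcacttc

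On both strands the core was found 3 times before Eng, 2 times before Tek, 4 times before Kdr and 4 times before Flt1. It is common: 93.4% of 32851 promoters of the same length hold it, with a median of 3 matches. The longer ETS match CCGGAAG, found in 6.91% of promoters, and the core of hypoxia response elements, ACGTG, found in 16.6%, occurred in none of these 4. A TATAAA match, found in 12.4% of promoters, was present before Flt1 only, and GGGCGG, the GC box, was present before Flt1 (3 matches) and Kdr (2 matches) against 32.7% of promoters. Promoter entries matched 5 of the 10 genes, Vegfa being the fifth.

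Each array had 64.6% to 73.8% of its spots well above background and none saturated. All 4 polyp arrays were brighter than all normal arrays before scaling, with 75th percentiles of 11.06 to 11.20 against 10.52 to 10.75 (log2 signal), a gap the scaling removes. The correlation r between arrays of a group, taken over genes (not independent of each other), was 0.959 to 0.992. The wild-type arrays all lay on slide 1, so slide and genotype cannot be told apart. Slide 2 held both tissues of mice 103 and 106 and slide 3 those of mice 107 and 110. All 16 of the other endothelial genes listed for comparison were well enough above background to be tested, as were 8 of 8 markers each of epithelium, fibroblasts and smooth muscle, and none of these marker sums was near 0. Precision is limited by the number of arrays. Levels are log2 signals minus the array's 75th percentile, compared between samples for a probe and never between probes; differences are log2 ± SE between 4 and 4 arrays, tested by limma with Benjamini-Hochberg adjustment over all 20082 genes and called at an adjusted p under 0.05.

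One array stood apart on vessel genes. On the probes used, the wild-type array of mouse 108 was the lowest of its group for 8 of the 10 genes, Vegfa and Kdr being the exceptions. The median of the 10 was −0.82 against the mean of the other 3 arrays. On a second, dimmer probe Kdr was lowest there too (−1.78 against −1.06, −0.70 and −0.91 in mice 102, 104 and 105), which makes 9 of 10. Over all genes tested, 23.4% were lowest on that array and the median was 0.02. The deficit was 2.88-fold for Flt1, 2.84-fold for Plvap, 1.89-fold for Cdh5, 1.86-fold for Eng, 1.78-fold for Angpt2, 1.75-fold for Vwf, 1.74-fold for Tek and 1.43-fold for Pecam1, and 1.05-fold for Vegfa. On the same array 14 of 16 other endothelial genes were lowest (median −0.67), as were 8 of 8 fibroblast markers (median −1.24), whereas 0 of 8 epithelial markers (0.14) and 1 of 8 smooth muscle markers (−0.09) were. The part of the makeup of this sample in the results was not tested, and values without it are given for the 10 genes in the comparisons with wild-type tissue.

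**Figure D1:**
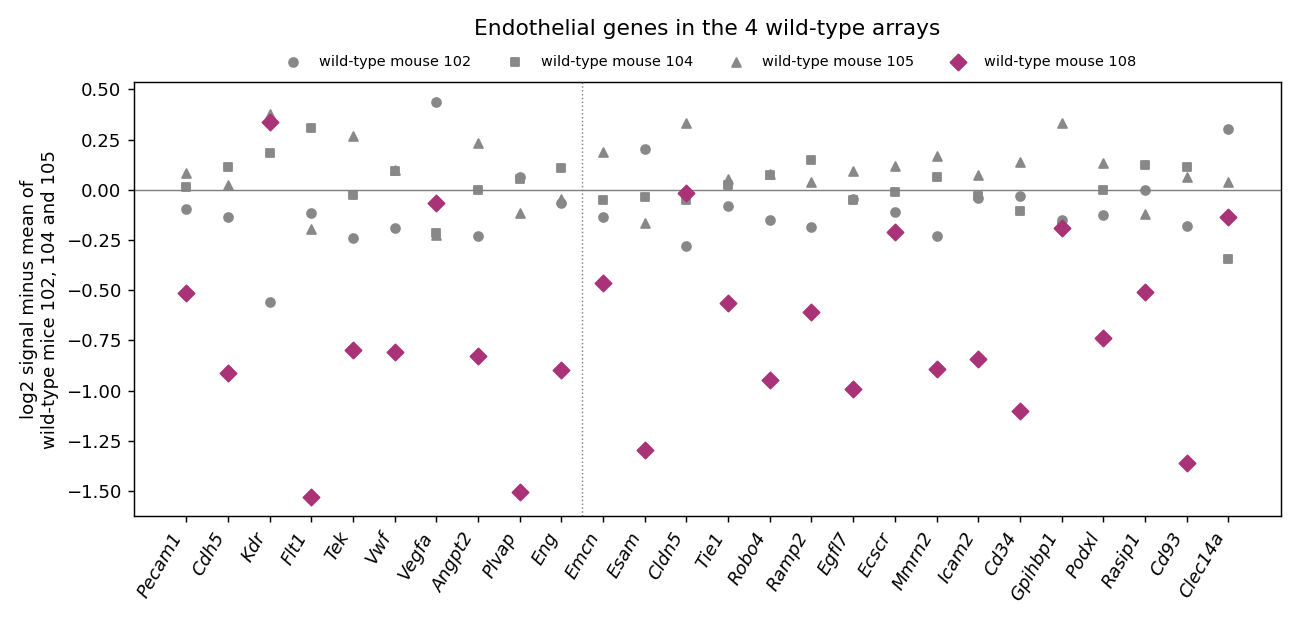
Level of each gene on the 4 wild-type arrays (log2, y axis) minus the mean of mice 102, 104 and 105, with the 10 genes left of the dotted line and 16 other endothelial genes right of it. Circles, squares and triangles are mice 102, 104 and 105, and diamonds the array of mouse 108. On the probes used, that array lies lowest for 8 of the 10 genes and for 14 of the 16 others.

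Polyps were first compared with the normal tissue of the 4 Apc mutant mice that bore them. Polyps held 9.49-fold more signal of Angpt2, the angiopoietin of activated endothelium, and 2.11-fold more of Cdh5, the junction cadherin of all blood vessels. Tek, the angiopoietin receptor, and Plvap, the protein of the diaphragms of fenestrated capillaries, fell 1.42-fold and 1.24-fold. The other 6 genes were not called, among them both VEGF receptors on the probes used, Vegfa itself and Pecam1. So 2 of 10 genes were called higher and 2 of 10 lower, where 20.5% and 24.9% of all genes tested were; the median of the 10 differences was 0.03 and that of all genes −0.06. In 5 of 10 genes (Cdh5, Tek, Angpt2, Plvap and Eng) the polyp and Apc normal arrays did not overlap, against 45.1% of all genes.

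**Figure D2:**
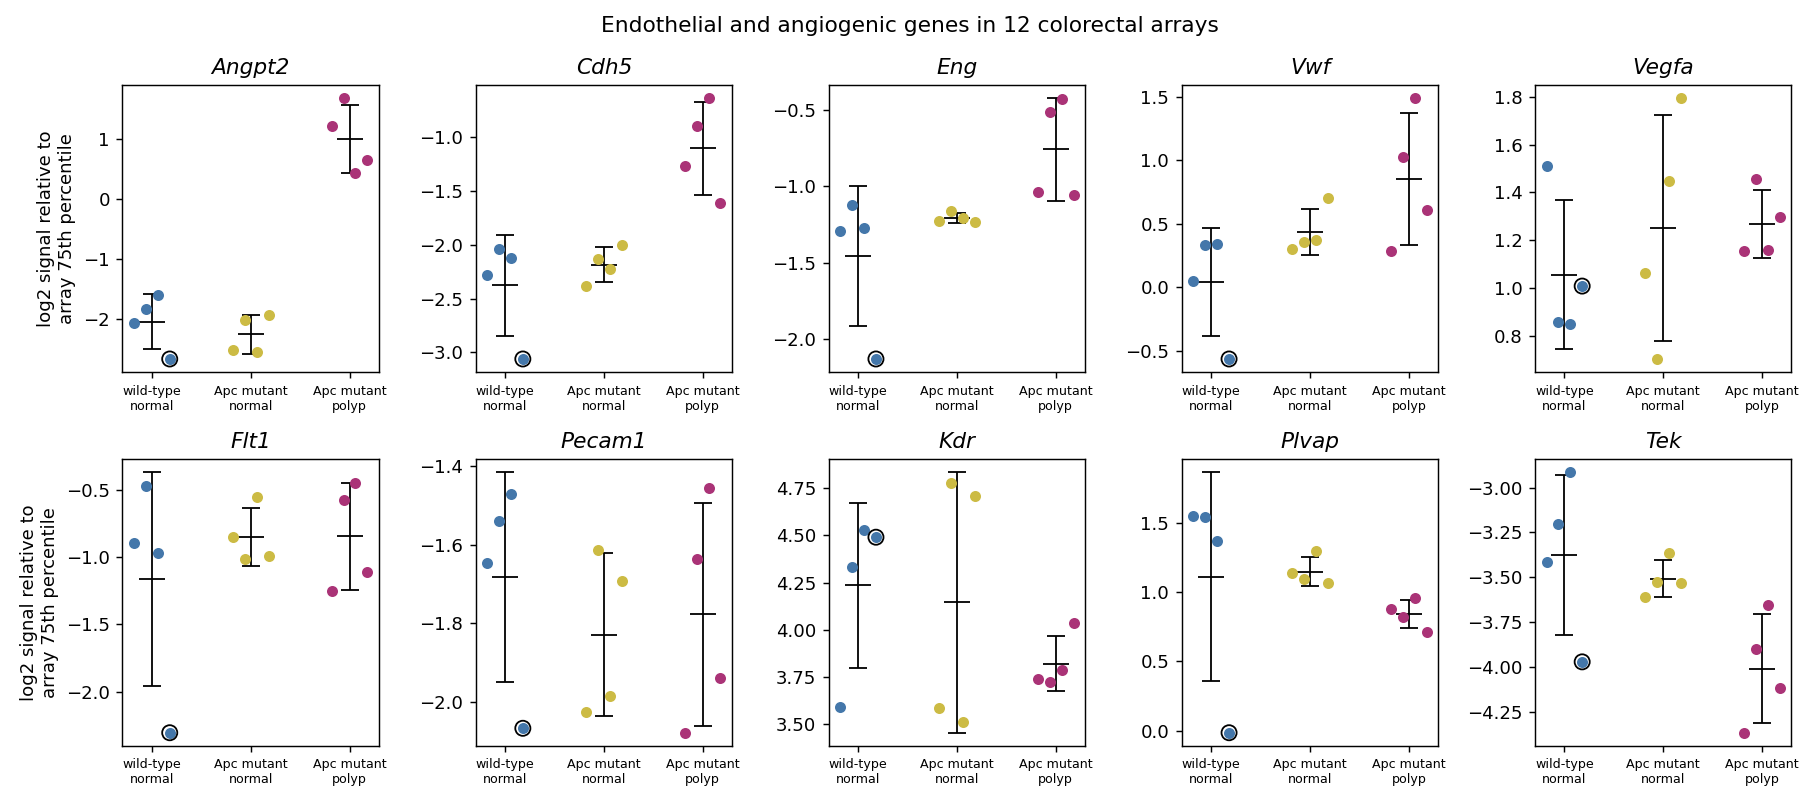
Level of each of the 10 genes (log2 relative to the array's 75th percentile, y axis, each panel on its own scale) in wild-type normal, Apc normal and polyp tissue. Points are arrays, marks are mean ± SD (n = 4), and ringed points are wild-type mouse 108; the 4 polyp arrays lie clear of both normal groups for Angpt2 and Cdh5.

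Angpt2, read at chr8:18691458-18691517 (mm9, minus strand), stood at −2.07, −1.83, −1.60 and −2.66 in wild-type mice 102, 104, 105 and 108, at −2.51, −2.02, −2.55 and −1.93 in Apc normal tissue of mice 103, 106, 107 and 110, and at 1.21, 1.67, 0.43 and 0.65 in their polyps. Every polyp array was far above every normal array, and the normal groups overlapped throughout. Polyps exceeded Apc normal tissue by 3.25 ± 0.29 (limma adjusted p = 0.000141) and wild-type tissue by 3.03 ± 0.32 (8.19-fold, adjusted p = 9.73e-05). Within mice 103, 106, 107 and 110 the rise was 3.72, 3.70, 2.98 and 2.59. The gene was called under every alternative run for the comparison with Apc normal tissue, at 2.78 to 3.71, each slide alone included. It had the widest range of group means of the 10.

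Vegfa, the main ligand of the VEGF receptors, was read by a brighter probe at chr17:46154387-46154446 and by a dimmer one at chr17:46162376-46162435, both on the minus strand. The brighter probe gave 1.51, 0.86, 0.85 and 1.01 in wild-type tissue, 1.06, 0.70, 1.45 and 1.79 in Apc normal tissue and 1.16, 1.46, 1.16 and 1.30 in polyps. The groups overlapped, with the Apc normal arrays the most spread, and polyps differed from Apc normal tissue by 0.01 ± 0.23 (limma adjusted p = 0.967) and from wild-type tissue by 0.21 (adjusted p = 0.293). The difference from wild-type tissue was called without mouse 102 (0.36, limma adjusted p = 0.0236) and not without mouse 108 (0.19, adjusted p = 0.399). The dimmer probe gave −0.52, −1.05, −1.10 and −1.02, then −0.90, −0.76, −0.42 and −0.17, then −0.75, 0.03, −0.39 and −0.15 in the same order. It did not separate polyps from Apc normal tissue (0.25, limma adjusted p = 0.395, in a fit of all 26112 probes), but was 1.53-fold higher in polyps than in wild-type tissue (0.61 ± 0.20, adjusted p = 0.0271), a call lost without mouse 108 (0.58, adjusted p = 0.0622). The probes' differences from wild-type tissue were 0.40 apart (two-sided exact permutation test, p = 0.0286, the smallest that 4 against 4 arrays allow; 0.114 after adjustment over 12 such tests).

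Kdr, the main signalling VEGF receptor, was also read by a pair of probes, 1086 bases apart. On the brighter, at chr5:76330395-76330454, the levels were 3.59, 4.33, 4.53 and 4.49 in wild-type tissue, 3.59, 4.78, 3.51 and 4.71 in Apc normal tissue, and 3.74, 3.72, 3.79 and 4.03 in polyps. The polyps lay close together inside the range of both normal groups, in which single arrays sat about 1 unit apart. The dimmer probe, at chr5:76329309-76329368, gave −1.06, −0.70, −0.91 and −1.78, then −1.02, −0.88, −0.49 and −0.86, then −1.44, −1.39, −0.79 and −1.36. Here 3 of 4 polyp arrays lay below all Apc normal arrays, and the polyp was the lower tissue in all 4 mice (−0.42, −0.51, −0.31 and −0.50 in 103, 106, 107 and 110). Neither probe was called in polyps against Apc normal tissue (−0.33 ± 0.32, limma adjusted p = 0.432, and −0.44 ± 0.18, adjusted p = 0.0858) or against wild-type tissue (−0.41, adjusted p = 0.120, and −0.14, adjusted p = 0.656). Without wild-type mouse 102 the brighter probe was called lower in polyps than in wild-type tissue (−0.63, limma adjusted p = 0.00248), and with the mouse number as a block the dimmer was called lower than in Apc normal tissue (adjusted p = 0.0200). Without mouse 108 neither was called against wild-type tissue (−0.33, adjusted p = 0.247, and −0.36, adjusted p = 0.134).

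Flt1, the decoy VEGF receptor, differed by probe. The brighter probe, at chr5:148373791-148373850, gave −0.89, −0.47, −0.97 and −2.31 in wild-type tissue, −0.85, −1.01, −0.55 and −0.99 in Apc normal tissue and −1.25, −0.57, −0.45 and −1.11 in polyps. These groups overlapped fully, and polyps differed from Apc normal tissue by 0.00 ± 0.21 (limma adjusted p = 0.988) and from wild-type tissue by 0.31 (adjusted p = 0.512), or −0.07 without mouse 108 (adjusted p = 0.821). A probe at chr5:148446872-148446931, 73.1 kb away and annotated in the files with a transcript of its own, gave −2.61, −1.99, −2.31 and −3.42, then −2.49, −2.18, −1.83 and −2.00, then −1.65, −0.43, −0.85 and −1.12. On it every polyp array was above every normal array. Polyps were 2.17-fold above Apc normal tissue (1.11 ± 0.26, limma adjusted p = 0.00943 in the fit of all probes, which called 45.2% of them) and 2.97-fold above wild-type tissue (1.57 ± 0.35, adjusted p = 0.00477, where 60.4% of probes were called; 1.29 without mouse 108, adjusted p = 0.00754).

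The difference between the Flt1 probes was itself 1.11 larger in polyps than in Apc normal tissue and 1.26 larger than in wild-type tissue (exact permutation test, p = 0.0286 for both, 0.114 after adjustment over 12 tests). With the mean over a gene's probes, Flt1 was called 0.72 higher in polyps than in Apc normal samples (limma adjusted p = 0.0165). The remaining Flt1 probe, at chr5:148465976-148466035, was well above background on 2 of 12 arrays and was not tested. Which transcripts of Flt1 each probe reads was not tested.

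**Figure D3:**
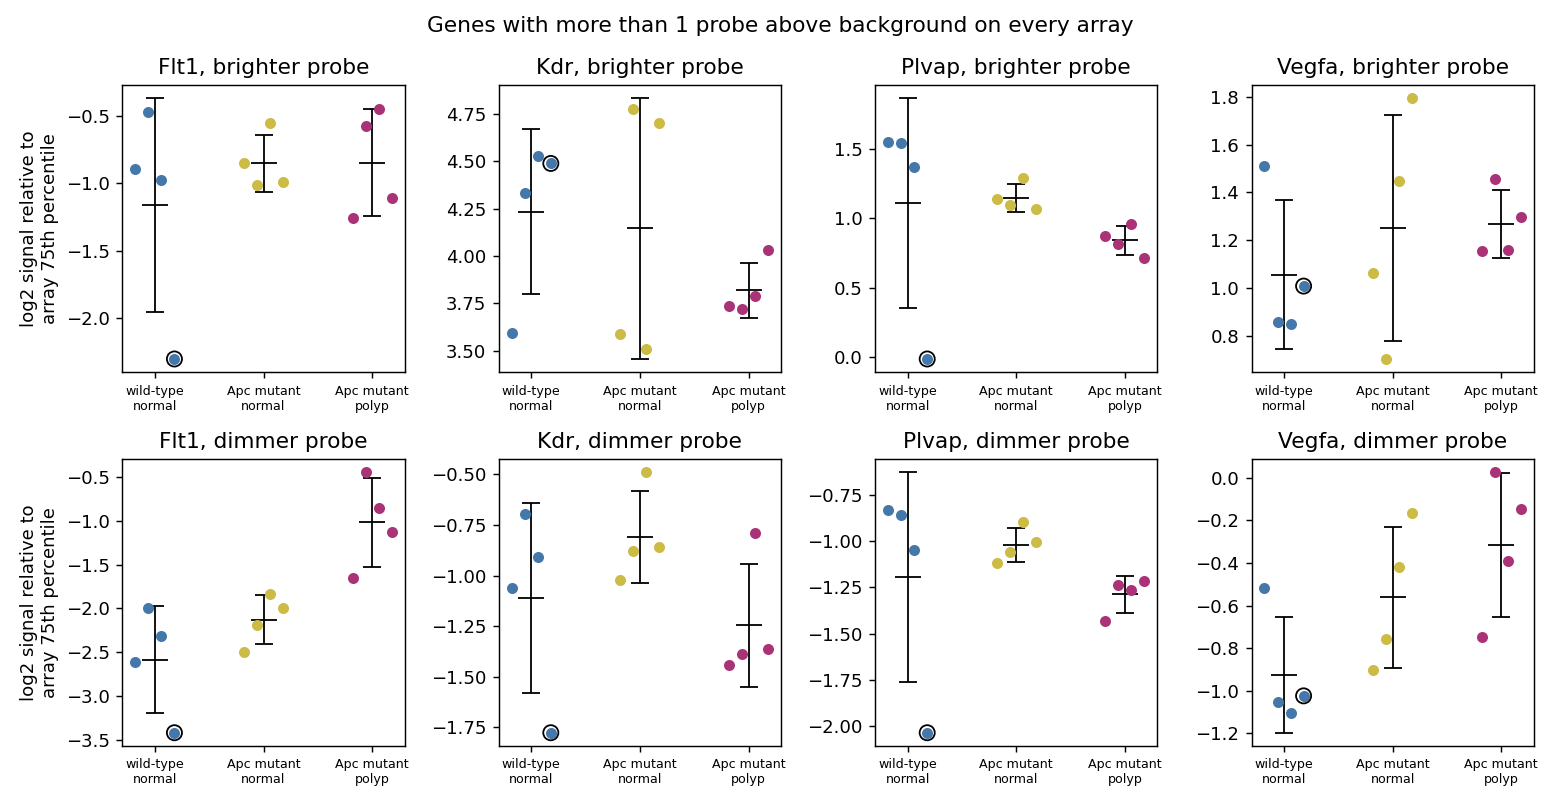
Levels of every probe well above background on all 12 arrays for Kdr, Flt1, Vegfa and Plvap (log2 relative to the array's 75th percentile, y axis, each panel on its own scale). Points are arrays, marks are mean ± SD (n = 4) and ringed points wild-type mouse 108; the Flt1 probe annotated with its own transcript is higher on all 4 polyp arrays, the brighter one is not.

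Tek, the receptor of the angiopoietins, stood at −3.42, −3.20, −2.91 and −3.97 in wild-type tissue, at −3.61, −3.52, −3.37 and −3.53 in Apc normal tissue and at −4.37, −3.90, −3.65 and −4.12 in polyps. All polyp arrays lay below all Apc normal arrays and below 3 of the 4 wild-type arrays. Polyps were lower than Apc normal tissue by −0.50 ± 0.16 (limma adjusted p = 0.0344), and the drop was seen in all 4 mice, from −0.76 in mouse 103 to −0.28 in mouse 107. This call was close to the threshold and was lost in 15 of 23 alternatives. Leaving out 1 array lifted the adjusted p to 0.0510 (Apc normal mouse 103), 0.0625 (106), 0.0770 (107) or 0.0622 (110), or to 0.0731 (polyp of mouse 103), 0.0585 (106) or 0.0843 (110), at differences of −0.54 to −0.38. Against wild-type tissue the difference was −0.63 (adjusted p = 0.0515), and −0.83 without mouse 108 (adjusted p = 0.00992).

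Eng, the coreceptor endoglin, which binds BMP ligands on endothelial cells, was read at chr2:32537268-32537327 (plus strand). It gave −1.30, −1.12, −1.28 and −2.13 in wild-type tissue, −1.23, −1.16, −1.21 and −1.24 in Apc normal tissue and −1.04, −0.51, −0.43 and −1.06 in polyps. Every polyp array was above every normal array, with polyps of mice 106 and 107 the highest. The difference from Apc normal tissue, 0.45 ± 0.17, was not called (limma adjusted p = 0.0576), though it was without the polyp array of mouse 103 (0.54, 0.0400) or 110 (0.55, 0.0368). That from wild-type tissue was called (0.70, limma adjusted p = 0.0424). The latter ended without wild-type mouse 102 (0.0570), 105 (0.0588) or 108 (0.47, adjusted p = 0.0657) or the polyp of mouse 106 (0.103) or 107 (0.103). Median scaling, array weights and dropping the filter on dim probes also ended it, so the call was lost in 8 of 19 alternatives.

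Cdh5, read at chr8:106668159-106668218 (plus strand), stood at −2.28, −2.04, −2.13 and −3.06 in wild-type tissue, at −2.38, −2.13, −2.22 and −2.00 in Apc normal tissue and at −1.27, −0.90, −0.64 and −1.62 in polyps. No polyp array overlapped a normal array of either genotype. Polyps were higher than Apc normal tissue by 1.08 ± 0.21 (limma adjusted p = 0.00427) and than wild-type tissue by 1.27 ± 0.28 (2.41-fold, adjusted p = 0.00489). The rise within mice 103, 106, 107 and 110 was 1.11, 1.23, 1.59 and 0.38. On slide 3 alone, with 2 arrays per tissue, it was 0.99 and not called (limma adjusted p = 0.198).

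Pecam1, which joins endothelial cells and is also carried by platelets and leukocytes, gave −1.65, −1.54, −1.47 and −2.07 in wild-type tissue, −2.03, −1.61, −1.98 and −1.69 in Apc normal tissue and −2.08, −1.64, −1.46 and −1.94 in polyps. The 3 groups overlapped fully. Polyps differed from Apc normal tissue by 0.05 ± 0.17 (limma adjusted p = 0.826) and from wild-type tissue by −0.10 (adjusted p = 0.668), or −0.22 without mouse 108 (adjusted p = 0.276). Relative to Cdh5 on the same array, the polyp level of Pecam1 differed from that of Apc normal tissue by −1.03 (limma adjusted p = 0.00444). On that reading 70.8% of all genes were called lower (median −1.14), so Pecam1 moved much as most genes did. The junction genes thus gave different readings of the same samples.

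Plvap was read by a brighter probe at chr8:74021877-74021936 and by the dimmer one printed above. The brighter gave 1.55, 1.54, 1.37 and −0.02 in wild-type tissue, 1.14, 1.09, 1.29 and 1.07 in Apc normal tissue and 0.88, 0.82, 0.96 and 0.71 in polyps. All polyp arrays lay below all Apc normal arrays and below every wild-type array but that of mouse 108. The fall from Apc normal tissue was narrow and even (−0.31 ± 0.10, limma adjusted p = 0.0392), between −0.35 and −0.27 in each of the 4 mice. The call was lost in 17 of 23 alternatives, among them leaving out Apc normal mouse 103 (0.0683), 106 (0.0547) or 107 (0.0877) or the polyp of mouse 103 (0.0707), 106 (0.0937) or 110 (0.104), median scaling (0.157) and quantile normalization (0.0681). The dimmer probe fell by 0.27 ± 0.10 on the log2 scale and was not called (adjusted p = 0.0604 in the fit of all probes). Against wild-type tissue the brighter probe differed by −0.27 (limma adjusted p = 0.511), and by −0.65 without mouse 108 (adjusted p = 0.00149), where the dimmer probe was called lower too (−0.37, adjusted p = 0.0173; −0.09 with it, adjusted p = 0.771).

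Vwf, the clotting protein that endothelial cells store and that platelets bind, was read at chr6:125636551-125636610 (plus strand). It gave 0.05, 0.34, 0.34 and −0.56 in wild-type tissue, 0.30, 0.36, 0.37 and 0.70 in Apc normal tissue and 0.29, 1.03, 1.49 and 0.61 in polyps. Polyps of mice 106 and 107 were high, while that of 110 lay within the range of Apc normal tissue and that of 103 just below it. The difference from Apc normal tissue was 0.42 ± 0.25 (limma adjusted p = 0.208). That from wild-type tissue, 0.81 ± 0.30, was called (adjusted p = 0.0439), but ended without wild-type mouse 102 (0.0767), 104 (0.0514), 105 (0.0503) or 108 (0.61, adjusted p = 0.0983) or the polyp of mouse 106 (0.0987), 107 (0.0971) or 110 (0.0557). Dropping the filter on dim probes also ended it, so the call was lost in 8 of 19 alternatives.

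**Figure D4:**
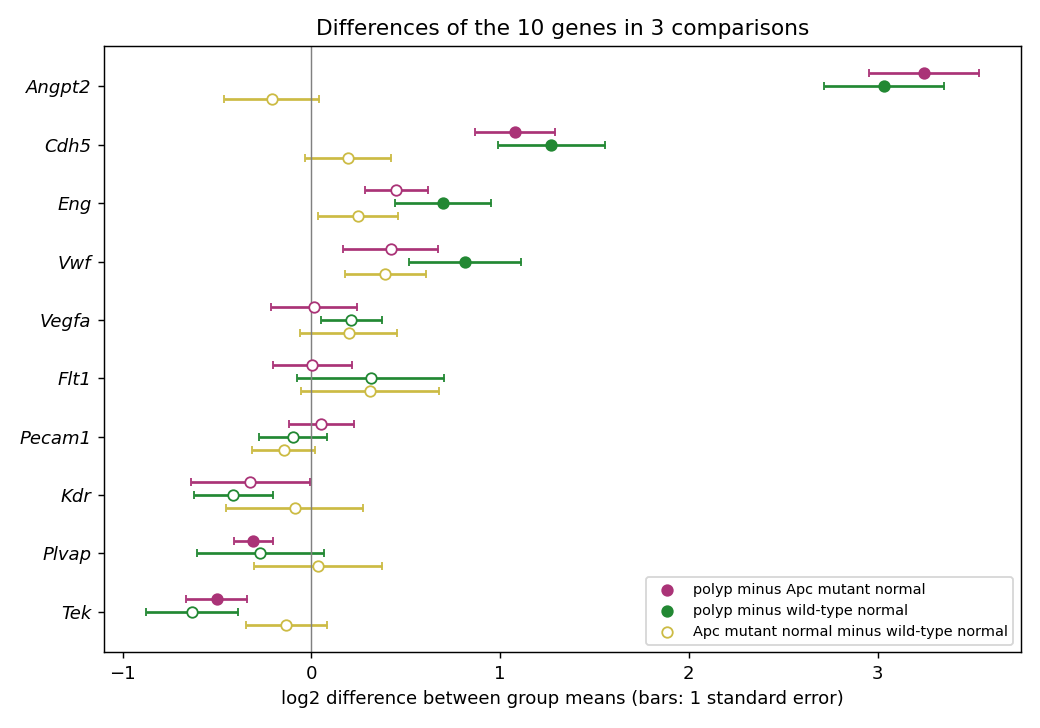
Log2 difference of each of the 10 genes (x axis) in the 3 comparisons, with bars of 1 SE; filled points have a limma adjusted p under 0.05 and open points do not. Angpt2 lies at 3.25 and 3.03 in the comparisons of polyps and at −0.21 between the normal tissues.

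The second comparison set Apc normal tissue against wild-type normal tissue. Genotype and slide differ together in it and cannot be told apart. None of the 10 genes was called, where 0.169% of all genes were (34 genes), none had an unadjusted p under 0.05 in limma, and none had groups that did not overlap, against 10.3% of all genes. Vwf had the largest difference of the 10 (0.39, limma adjusted p = 0.390), followed by Flt1 (0.31), Eng (0.25), Angpt2 (−0.21), Vegfa (0.20) and Cdh5 (0.19). No alternative run called any of them. Without wild-type mouse 108 the differences were 0.19 for Vwf, −0.07 for Flt1, 0.02 for Eng, −0.42 for Angpt2, 0.18 for Vegfa and −0.04 for Cdh5. Tek (−0.13), Pecam1 (−0.15), Kdr (−0.09) and Plvap (0.04) made up the rest, and without that array they stood at −0.33, −0.28, −0.00 and −0.34.

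The third comparison set polyps against wild-type normal tissue. It shares its polyp arrays with the first comparison and its wild-type arrays with the second. Angpt2, Cdh5, Vwf and Eng were called higher and none lower, so 4 of 10 and 0 of 10, where 27.4% and 32.8% of all genes were. The median of the 10 was 0.26, against −0.05 for all genes. Groups did not overlap for Angpt2, Cdh5 and Eng, 3 of 10 against 56.7% of all genes. Without wild-type mouse 108 the counts became 2 higher (Angpt2 and Cdh5, at 2.83 and 1.04) and 2 lower (Plvap and Tek). Tek was called lower in 10 of 19 alternatives to this comparison.

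Since Cdh5 is held to be restricted to endothelium, the other 9 genes were also read relative to Cdh5 on the same array, which removes the scaling between arrays. Cdh5 itself rose in polyps, and 70.8% of all genes were accordingly called lower relative to it and 3.89% higher (median −1.14). Angpt2 was called higher, by 2.17 ± 0.35 (limma adjusted p = 6.90e-05). Tek (−1.58), Kdr (−1.40), Plvap (−1.39), Flt1 (−1.07), Vegfa (−1.07), Pecam1 (−1.03) and Vwf (−0.66) were called lower, so 1 of 9 genes rose and 7 of 9 fell, and Eng (−0.63, adjusted p = 0.0534) was not called. The reference decided much of this. Relative to Pecam1, Angpt2 stayed higher, while Kdr (−0.38), Flt1 (−0.05), Vegfa (−0.04), Plvap (−0.36) and Tek (−0.55) were no longer called. Vwf lost its call with the mouse number as a block (limma adjusted p = 0.0990) and on leaving out any Apc normal array (0.0953 to 0.137) or the polyp of mouse 103 (0.189) or 106 (0.115). In polyps against wild-type tissue 1 of 9 rose relative to Cdh5 (Angpt2, 1.76) and 6 of 9 fell, where 3.97% and 71.1% of all genes did; without mouse 108 the same genes were called. Of these, Flt1 lost its call without any of wild-type mice 102, 104 and 105 or any of the polyps of mice 103, 106 and 107 (0.0539 to 0.0912) and with the mean over probes (0.119), and Vegfa without wild-type mouse 102 (0.0596) or the polyp of mouse 107 (0.0760). The error of Cdh5 is part of every such difference. In the first comparison limma gave these genes nearly the same SE (0.28 to 0.36). Against wild-type tissue it gave each of them the same SE, 0.42, so calls there rest on the size of the difference and not on each gene's own spread. Eng (−0.58, limma adjusted p = 0.198) and Vwf (−0.46, adjusted p = 0.307) were not called there. Between the normal tissues limma called 0 of 9 genes on this reading, against 0.543% of all genes.

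Genes with profiles most like those of Angpt2, Cdh5 and Vwf, the 3 with the widest range of group means, were taken by the smallest root mean square distance between profiles over the 12 arrays, each centred on its own mean. Nearest to Angpt2 were Mex3b, an RNA-binding protein gene (distance 0.283; 3.15 higher in polyps than in Apc normal tissue), Gpc1, a glypican gene (0.285; 3.01), and Gprc5c, an orphan receptor gene (0.30; 2.90, though 0.96 on another of its probes). Nearest to Cdh5 were Egfl7, a secreted protein gene of endothelial cells (0.151; 0.87), Ifnar2, an interferon receptor gene (0.206; 1.02), and Col4a2, a basement membrane collagen gene (0.214; 0.93). Nearest to Vwf were Adcy4, an adenylyl cyclase gene (0.168; 0.60, limma adjusted p = 0.0347), and Eng (0.181). The Adcy4 call was lost on leaving out Apc normal mouse 103 (0.0827) or 107 (0.0766) or the polyp of mouse 106 (0.0874) or 107 (0.0802).

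Around these genes, the ligands and receptors of their families were read in polyps against Apc normal tissue. The family counts include some of the genes followed above: Vegfa, Kdr and Flt1 for VEGF, and Angpt2 and Tek for the angiopoietins. Lists further on count Eng (endoglin), Vwf (haemostasis) and Vegfa (hypoxia) again. Of 10 genes of the VEGF family, 1 rose, 1 fell and 8 were not called (median −0.35). This count and those of the lists that follow are to be read against the 20.5% of all genes called higher and 24.9% called lower. Pgf, the placental growth factor that binds VEGFR1, rose from −3.52, −2.71, −3.30 and −2.85 to −1.56, −0.63, −2.00 and −1.71 in mice 103, 106, 107 and 110 (1.62 ± 0.31, 3.08-fold, limma adjusted p = 0.00394). Each polyp was above all Apc normal and wild-type arrays. Vegfd, a ligand of the lymphatic receptor, fell by 1.13 ± 0.33 on the log2 scale (adjusted p = 0.0222), a call lost on leaving out the polyp of mouse 107 (0.0542) or Apc normal mouse 110 (0.0535). Vegfb (−0.53), Vegfc (0.23), the lymphatic receptor gene Flt4 (−0.57) and the neuropilin coreceptor genes Nrp1 (−0.38) and Nrp2 (−0.98, adjusted p = 0.0556) were not called. Flt4 was called without the Apc normal array of mouse 107 (−0.87, limma adjusted p = 0.00997), though it was well above background on 4 wild-type, 2 Apc normal and 2 polyp arrays only, and Nrp2 in 10 alternatives, the mouse block among them (0.0154).

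Of 6 genes of the angiopoietin and TIE family, 2 rose (Angpt2, described above, and Angpt4), 1 fell (Tek, described above) and 3 were not called (median 0.03). Angpt4, a TIE2 ligand, gave 0.67, 4.96, 0.77 and 6.56 in wild-type tissue, 2.32, 1.86, 3.75 and 0.84 in Apc normal tissue and 5.56, 5.0, 6.29 and 6.33 in polyps. Polyps lay above all Apc normal arrays and above 3 of the 4 wild-type arrays, which split widely, that of mouse 108 being the highest of all. It was called against Apc normal tissue (3.61 ± 0.60, 12.2-fold, limma adjusted p = 0.00183), with 2.70 and 2.77 on its other probes, and not against wild-type tissue (2.55, adjusted p = 0.127), except without mouse 108 (3.66, adjusted p = 0.0208). Angpt1, the stabilising ligand, differed by −0.80 (adjusted p = 0.100); it was called with the mouse number as a block (0.0280) and without the polyp array of mouse 107 (−1.13, 0.0133), and was lower than in wild-type tissue (−1.17, adjusted p = 0.0172; −1.24 without mouse 108, adjusted p = 0.0290). Tie1 (0.23) and the phosphatase gene Ptprb (−0.18) were not called.

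**Figure D5:**
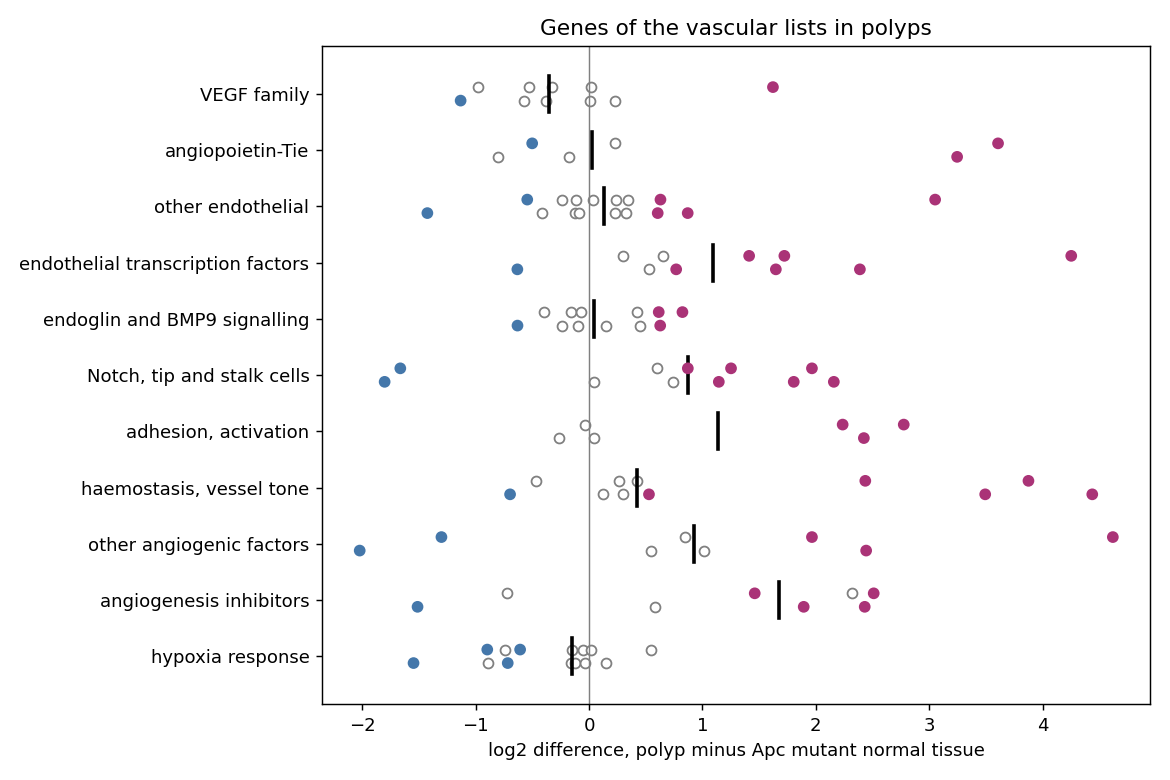
Log2 differences of polyps from Apc normal tissue (x axis) for the genes of each list (rows), tested by limma. Purple points were called higher, blue points lower and open grey points were not called. Black lines are list medians, which lie at −0.35 for the VEGF family and at 1.68 for the angiogenesis inhibitors.

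Of 16 other endothelial genes, 4 rose, 2 fell and 10 were not called (median 0.13). Ecscr, a regulator of endothelial migration, rose from −0.47, −0.03, −0.28 and −0.38 to 2.74, 3.03, 2.64 and 2.65 (3.05 ± 0.14, limma adjusted p = 1.68e-05), and Egfl7 rose by 0.87 ± 0.16 (adjusted p = 0.00311). Clec14a, a lectin of vessel walls, fell by 1.43 ± 0.24 on the log2 scale (adjusted p = 0.00181) and the adrenomedullin coreceptor gene Ramp2 by 0.55 (adjusted p = 0.0320). The Ramp2 call was lost with the mouse block (0.0635) and on leaving out any of 5 arrays (the polyp of mouse 103, 106 or 110 or Apc normal mouse 106 or 110; 0.0665 to 0.0879).

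Of 10 tested genes of endothelial transcription factors, 6 rose, 1 fell and 3 were not called (median 1.09). Sox17, a factor of arterial endothelium and of endoderm, rose by 4.25 ± 0.36 (limma adjusted p = 0.000118), and 4.11 on a second probe. Sox7, also called higher, was well above background on 0 wild-type, 1 Apc normal and 4 polyp arrays, so the size of its rise was not measured. The flow-responsive factor gene Klf2 fell by 0.63 ± 0.17 on the log2 scale (adjusted p = 0.0159). Of 12 genes of endoglin and BMP signalling, 3 rose, 1 fell and 8 were not called (median 0.04). The receptor gene Bmpr2 rose by 0.63 ± 0.11 (adjusted p = 0.00237) and the signal transducer gene Smad5 by 0.61 (adjusted p = 0.00421), while Smad1 fell by 0.63 on the log2 scale (adjusted p = 0.0182), a call lost under median scaling (0.0545) and with the mean over its probes (−0.31, 0.148).

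Of 11 genes of Notch signalling and of sprouting tip and stalk cells, 6 rose, 2 fell and 3 were not called (median 0.87). Pdgfb, which recruits pericytes, rose by 1.97 ± 0.16 (limma adjusted p = 0.000106) and the Notch ligand gene Jag2 by 2.16 ± 0.19 (adjusted p = 0.000142), the latter well above background on 2 wild-type, 3 Apc normal and 4 polyp arrays. Notch1 fell by 1.80 ± 0.21 on the log2 scale (adjusted p = 0.000405), but by 0.44, not called, with the mean over its probes (0.0894), and the netrin receptor gene Unc5b by 1.66 (adjusted p = 0.000546). Of 6 tested genes of leukocyte adhesion, 3 rose and 3 were not called (median 1.14), led by Icam1 (2.77 ± 0.26, adjusted p = 0.000170) and Cd44 (2.24 ± 0.27, adjusted p = 0.000419). Epithelial and immune cells express several of these genes as well, and the cell of origin was not tested.

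Of 11 tested genes of haemostasis and vessel tone, 5 rose, 1 fell and 5 were not called (median 0.42). The urokinase receptor gene Plaur rose by 3.49 ± 0.34 (limma adjusted p = 0.000198), while the endothelin receptor gene Ednrb fell by 0.70 on the log2 scale (adjusted p = 0.0397). That call was lost on leaving out the polyp of mouse 103, 106 or 110 or Apc normal mouse 106, 107 or 110 (0.0615 to 0.0931). Among 8 tested angiogenic factors outside the VEGF family, 3 rose, 2 fell and 3 were not called (median 0.93). Ccn1, a matrix protein gene that promotes vessel growth, rose by 2.44 ± 0.18 (adjusted p = 7.57e-05). The chemokine gene Cxcl12 fell by 2.02 ± 0.23 on the log2 scale (adjusted p = 0.000366) and Fgf1 by 1.30 ± 0.19 (adjusted p = 0.00100).

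Among 8 angiogenesis inhibitors, 4 rose, 1 fell and 3 were not called (median 1.68). The thrombospondin gene Thbs2 rose by 2.51 ± 0.23 (limma adjusted p = 0.000144) and the semaphorin gene Sema3f by 1.89 ± 0.18 (adjusted p = 0.000175), while Sema3a fell by 1.51 ± 0.22 on the log2 scale (adjusted p = 0.000946; −0.42 on another probe). Of 14 hypoxia-response genes, 4 fell and 10 were not called (median −0.15), where 24.9% of all genes fell. Epas1, the hypoxia factor most expressed in endothelium, fell by 1.55 ± 0.17 on the log2 scale (adjusted p = 0.000273; −0.65 and −1.29 on its other probes) and the lactate dehydrogenase gene Ldha by 0.61 ± 0.11 (adjusted p = 0.00277; 0.23 lower and not called under quantile normalization, 0.114). Between Apc normal and wild-type tissue limma called 0 of the 108 genes tested in these 11 lists, against 0.169% of all genes. Of the 108, 13 had an unadjusted p under 0.05 in limma. The share of all genes at that unadjusted threshold is not given here, so this count is not read further.

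Markers of other cell types moved in the same samples. Summed levels are sums of linear signals relative to the array's 75th percentile. All 8 smooth muscle markers, led in level by Tagln, fell from Apc normal tissue to polyps (median −3.62), with sums of 446 to 620 in wild-type, 306 to 421 in Apc normal and 30.01 to 58.7 in polyp tissue. Of 7 pericyte markers, led by Mcam, 2 rose and 2 fell (sums 4.74 to 8.21 in Apc normal tissue and 5.06 to 6.98 in polyps), and of 5 tested lymphatic endothelial markers, led by Pdpn, 1 rose and 2 fell (2.26 to 5.46 and 4.17 to 7.10). Of 8 fibroblast markers, led by Dcn, 2 rose and 2 fell (72.8 to 141 and 91.4 to 147).

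Of 5 tested platelet markers, led by Pf4, 4 were higher (3.72 to 6.69 in Apc normal tissue and 6.47 to 11.6 in polyps), and of 6 neutrophil markers, led by Csf3r, 4 were higher (23.8 to 42.8 and 52.2 to 132). Of 6 macrophage markers, led by Itgam, 1 rose and 1 fell, and 4 of 4 pan-leukocyte markers, led by Cd52, were not called. Of 8 epithelial markers, led by Krt8, 4 fell (456 to 614 and 306 to 381), as did 5 of 6 colonocyte markers, led by Muc3, and 1 of 5 tested adipocyte markers, led by Fabp4. Red cell markers, led by Hba-a1, were not called between polyps and Apc normal tissue. In Apc normal tissue 2 of 4 were called higher than in wild-type tissue, where 0.169% of all genes were called in either direction. Their sums were 5.25 to 10.8 in wild-type and 23.9 to 39.5 in Apc normal tissue. Slide and genotype cannot be told apart in this difference. The part of these shifts in the differences of the 10 vessel genes was not tested.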

How the data were processed

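The arrays were Agilent 4x44K whole-genome mouse arrays hybridised with Cy3-labelled RNA. Spots were quantified with Agilent Feature Extraction 10.7.3.1 (background subtraction and a correction of spatial trends, per the file headers), and the deposited processed signal is a linear intensity with no scaling between arrays recorded. The submitters' processing notes name the same version. The deposited value table holds a linear ratio; how it was made is not given in the sources. On each array about 99.8% of it was the processed signal over 1 constant, to within 1%, its column medians were 0.9999 to 1, and it shows no centring per gene.

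Outlier spots (1403) and all control spots were dropped, spots of a probe were averaged as log2 values, and each array's 75th percentile was subtracted. RefSeq names of assembly GRCm38.p6 were given to 27508 of the 39429 probes by accession, to 3544 by symbol and to 404 by synonym; 7973 kept the file's name. The brightest probe stood for a gene. Each comparison's 8 arrays were fitted with lmFit and eBayes in limma 3.58.1 under R 4.3.3 (two-sided), after tests on simulated data.

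The genes, lists and tests were chosen with earlier results of these data known. Named were the 10 genes with all their probes, the VEGF and angiopoietin families in full, the 2 genes of smallest p per direction among called genes of each other list, and the 3 nearest profiles; the marker of highest level was named for each marker list. Of the list genes, 2 were not found on the array, and 1 gene that this rule takes is not reported here. Each mouse is counted as a separate animal by the number in its sample's title. The mouse number in the titles pairs normal and polyp arrays, and it was used as a block in an alternative. Deviations of the paired arrays from their group means correlated at r = 0.455, 0.170, 0.143 and 0.283 for mice 103, 106, 107 and 110. Between mice r was −0.329 to 0.193, a range that holds the values of mice 106 and 107. Slide as a random block had a correlation of −0.0816. Alternatives changed the scaling, background correction, source of values, filter, probe rule, fit, blocks, reference gene and arrays.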

Additional observations from a re-analysis of the deposited data

Results flagged for a closer look

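The wild-type array of mouse 108 lay far from the others of its group for Plvap, at −0.015 against 1.37 to 1.55, its gap being 0.886 of the group's range. The Apc normal array of mouse 110 lay far from the others for Vwf, at 0.70 against 0.30 to 0.37, a gap of 0.830 of the range. Both gaps are past Dixon's critical value for 4 samples, which chance passes in about 1 in 20 groups.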

How the results depend on the processing

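Results kept their direction and side of the threshold in 1773 of 2030 recomputed values. This total includes values that were not called as reported and stayed so. Of the 4 vessel genes called in polyps against Apc normal tissue, Angpt2 lost its call in 0 and Cdh5 in 1 of 23 alternatives. Tek lost its call in 15 and Plvap in 17 of 23. The count of called genes in polyps against Apc normal tissue was 9129, 7211 to 8682 with 1 array left out, 3466 on slide 2 alone and 1902 on slide 3 alone, where each tissue has 2 arrays. With the mouse pairing as a replicate block it was 9321, and the same 4 of the 10 vessel genes were called; the block also ended the calls of Vwf relative to Cdh5 and of Ramp2 and made those of Angpt1 and Nrp2. Against wild-type tissue the count was 12096, 10944 to 11804 with 1 array left out. Between the normal tissues the count of 34 became 3 with normexp, 2 without a filter, 226 with all 12 arrays, 14 with trend and robust eBayes, 310 with array weights, 814 with slide as a random block and 2 to 530 with 1 array left out (530 without Apc normal mouse 103, 11 without wild-type mouse 108); the cause was not tested.

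Values that changed sign were not called as reported, apart from Vwf, Flt1 and Vegfa relative to Cdh5, for which another reference gene moved the zero point. In polyps against Apc normal tissue Flt1 was −0.0041 under quantile normalization and −0.0072 on slide 3, where Vegfa was −0.40 and Vegfc −0.20, and Pecam1 was −0.038 on slide 2. Relative to Pecam1 or to 5 endothelial genes in place of Cdh5, Vwf was 0.37 and 0.20 and Eng 0.40 and 0.23. Between the normal tissues Plvap was −0.0089 under median scaling, −0.010 in the value table and −0.11 with array weights, Kdr 0.10 with the mean over probes, 0.043 with array weights and 0.30 on its other probe (an alternative chosen after seeing the data, as were the fits of other probes without wild-type mouse 108, in which the dimmer Plvap probe was −0.11, or with the mouse block), and Flt1 −0.13 with the mean over probes. Relative to Pecam1, Kdr was 0.058, Tek 0.014 and Plvap 0.18, Plvap was 0.064 relative to 5 genes, and Flt1 relative to Cdh5 was −0.32 with the mean over probes. In polyps against wild-type tissue, relative to Pecam1 or to 5 genes, Flt1 was 0.41 and 0.12, Vwf 0.91 and 0.62, Vegfa 0.31 and 0.019, and Eng 0.79 and 0.51. The cause of these changes was not tested.

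With 1 array left out, differences of polyps from Apc normal tissue ran from −0.056 to 0.15 for Pecam1, −0.17 to 0.19 for Vegfa and −0.13 to 0.14 for Flt1, and of polyps from wild-type tissue from −0.068 to 0.54 for Flt1 and −0.22 to 0.0048 for Pecam1. Between the normal tissues they ran from −0.30 to 0.12 for Kdr, −0.33 to 0.021 for Tek, −0.036 to 0.31 for Cdh5, −0.072 to 0.54 for Flt1 and −0.34 to 0.18 for Plvap, and relative to Cdh5 from −0.18 to 0.22 for Vegfa, −0.53 to 0.032 for Kdr, −0.036 to 0.23 for Flt1 and −0.0039 to 0.13 for Eng. None of these differences was called with all 8 arrays.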
